A study of Homo sapiens with 9 samples.

Results

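Small nucleolar RNA host genes were chosen by symbol: all genes named SNHG followed by digits, together with GAS5. The naming table held 29 such symbols, and 28 of the 57905 genes of the count table carried one; SNHG4 was not analysed here. RNA was sequenced from KYSE180, a line grown from an esophageal squamous cell carcinoma of a human patient, which the title calls KDM6A-deficient. The 3 groups of 3 libraries carried a short hairpin RNA against EZH2 (shEZH2#1), another hairpin against EZH2 (shEZH2#3), or a hairpin against luciferase as control (shluc). All groups share the KDM6A deficiency and an exposure to 6 Gy of ionizing radiation, and no unirradiated sample was analysed here. The genotype label of the EZH2 libraries reads knockout while their titles name hairpins, and no label says whether the cells were 1 clone or whether replicates were separate cultures. The p-values therefore speak only to the variation among these 9 libraries, and that variation may be technical.

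Host genes carry small nucleolar RNAs (snoRNAs) in their introns. After splicing, the snoRNA is trimmed out of the excised intron and joins proteins that modify ribosomal RNA, with C/D snoRNAs guiding ribose methylation and H/ACA snoRNAs guiding pseudouridylation. The spliced exons of most SNHG genes encode no conserved protein, and several of these transcripts are short-lived because ribosomes read them and nonsense-mediated decay then degrades them. Many host genes start at a pyrimidine run (a 5′ terminal oligopyrimidine, or TOP, start) shared with ribosomal protein genes. GAS5 was named for its accumulation when growth arrests, and several SNHG transcripts have been studied as long non-coding RNAs in tumours. EZH2 is the methyltransferase of Polycomb repressive complex 2, and KDM6A removes the histone mark that EZH2 writes.

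RefSeq start windows on GRCh38.p14 were matched by symbol for 24 host genes, and not for SNHG15, SNHG6, SNHG9 and SNHG25. The windows below show 40 bases before and 40 bases from the annotated start, on the strand of the gene. They cover the 2 most abundant genes per kilobase and some of the genes whose changes are described later. Capitals mark every C followed by at least 4 letters that are each C or T, with those letters, where it lies within 10 bases of the start. Only the gene's strand was searched. Among windows not printed, those of SNHG14 and SNHG16 held such a run, and those of SNHG20 and GAS5 held none.
SNHG29 (chr17:16438947-16439026, plus strand): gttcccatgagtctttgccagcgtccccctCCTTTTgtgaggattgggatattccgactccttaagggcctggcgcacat
SNHG32 (chr6:31834876-31834955, plus strand): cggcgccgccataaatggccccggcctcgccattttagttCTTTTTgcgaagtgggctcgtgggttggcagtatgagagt
SNHG17 (chr20:38435289-38435368, minus strand): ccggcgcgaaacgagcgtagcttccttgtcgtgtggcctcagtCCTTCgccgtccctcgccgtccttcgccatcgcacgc
SNHG11 (chr20:38446614-38446693, plus strand): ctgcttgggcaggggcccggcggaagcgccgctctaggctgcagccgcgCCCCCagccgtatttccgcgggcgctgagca
SNHG7 (chr9:136728145-136728224, minus strand): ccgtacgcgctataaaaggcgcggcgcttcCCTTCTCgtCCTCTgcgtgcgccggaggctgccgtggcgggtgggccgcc
SNHG8 (chr4:118278722-118278801, plus strand): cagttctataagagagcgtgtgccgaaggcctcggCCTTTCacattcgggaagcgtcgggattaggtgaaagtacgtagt
SNHG19 (chr16:2155319-2155398, minus strand): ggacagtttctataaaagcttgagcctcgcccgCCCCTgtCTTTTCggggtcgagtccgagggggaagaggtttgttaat
SNHG3 (chr1:28505903-28505982, plus strand): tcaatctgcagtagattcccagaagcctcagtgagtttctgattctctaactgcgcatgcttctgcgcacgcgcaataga

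At least 1 such run was present in 14 of the 24 host gene windows (58.3%), in 61 of 75 windows of ribosomal protein genes (81.3%), and in 11755 of all 35116 RefSeq windows (33.5%). A window rests on 1 annotated start, and that start differed from the GENCODE 29 start by 163 bases for GAS5, by 165 bases for SNHG29, by 308 bases for SNHG32, by 1259 bases for SNHG12 and by 1927 bases for SNHG20. For SNHG14 the starts lay 154975 bases apart, and those of SNHG27 and SNHG28, which hold no run, lay 8464 and 200 bases apart. Smaller gaps, still beyond the 10 bases searched, were 76 bases for SNHG11, 62 for SNHG26, 53 for SNHG8 and 37 for SNHG3. They were 29 bases for SNHG1, 25 for SNHG17 and 15 for SNHG5. SNHG3 and GAS5 held no such run in their windows, which says only that these letters were not there. Among the 19 genes with a window that were tested for expression, the 11 with the run had a log2 fold change against shluc of 0.29 (median) in the shEZH2#1 comparison and 0.16 in the shEZH2#3 comparison. The 8 without it had medians of -0.01 for shEZH2#1 and 0.41 for shEZH2#3. The genes with the run had the higher median with 1 hairpin and the lower median with the other.

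The deposited estimated counts summed to between 14958011 and 21152006 per library. After a filter on low counts, 13252 genes were tested, among them 22 host genes. EZH2 itself had 11.5, 11.3 and 7.27 TMM-scaled counts per library of standard size (CPM) in shEZH2#1, 9.66, 11 and 9.11 CPM in shEZH2#3, and 18.4, 20.1 and 19.5 CPM in shluc, so no hairpin library reached the shluc range. Of 10 squamous markers 5 were tested, and 1 rose with shEZH2#1 (ITGB4) while 1 rose (ITGB4) and 1 fell (ITGA6) with shEZH2#3. Of all tested genes, 11.2% were higher with shEZH2#1, and 24.4% higher and 19.8% lower with shEZH2#3. KRT17 (959 to 1572 CPM) and ITGB4 (180 to 521 CPM) were high, and ITGA6 had 7.35 to 21.5 CPM. KRT5, KRT14, KRT6A, KRT13, TP63, SOX2 and DSG3 were near 0 in all libraries. The summed fibroblast list ranged from 52.9 to 62 CPM in shEZH2#1, from 79.4 to 117 CPM in shEZH2#3 and from 58.9 to 68.1 CPM in shluc, with COL1A2 and PDGFRA at 0. The endothelial list ranged from 7.96 to 8.28 CPM, from 28.4 to 32.6 CPM and from 13.8 to 19.8 CPM in shEZH2#1, shEZH2#3 and shluc, with KDR at 0. The immune list ranged from 16.1 to 20.2 CPM, from 25 to 30.7 CPM and from 18.5 to 22.2 CPM in those groups, with PTPRC and CD3E at 0. DCN, COL1A1 and CDH5 were detected in every library. The part of these lists in the host gene results was not tested.

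Libraries also differed along the GC content of transcripts. The rank correlation across genes between a library's deviation from the mean of all libraries and transcript GC content lay between -0.25 and 0.25 in shEZH2#1, between 0.37 and 0.64 in shEZH2#3, and between -0.69 and -0.39 in shluc. In the twentieth of genes lowest in GC (median 36.3%), the log2 fold changes against shluc had medians of -0.25 for shEZH2#1 and -0.58 for shEZH2#3. In the twentieth highest in GC (median 66.4%), these medians were 0.49 and 0.71. Values corrected for GC content and transcript length are given below wherever the correction ended, added or turned a call.

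Host gene transcripts spanned a wide range of abundance and were dominated by a few members. SNHG29 alone held 36.7% of the CPM of all 28 genes, and SNHG29, SNHG15, GAS5 and SNHG32 together held 67.7%. Per kilobase of exon, the mean level over all libraries was 47.6 CPM for SNHG29, 24.3 CPM for SNHG32, 16.3 CPM for SNHG15, 13.1 CPM for GAS5 and 12.3 CPM for SNHG6. SNHG14, a transcript of the imprinted region on chromosome 15 that holds long arrays of C/D snoRNAs, was lowest per kilobase of the tested genes, at 0.127 CPM. The order of GAS5, SNHG15 and SNHG6 depends on the length used. With the longest transcript, or the longest protein-coding one where a gene has any, they ranked as numbers 3, 5 and 4.

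The 6 host genes that were not tested had almost no counts. SNHG22 and SNHG27 had 0 counts in every library, which allows up to 0.22 CPM in the shallowest library (3 counts, counting error only). SNHG18, SNHG25, SNHG26 and SNHG31 had between 2 and 6 counts each over all 9 libraries.

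The summed level of all 28 genes was 609, 510 and 525 CPM in shEZH2#1, 594, 413 and 478 CPM in shEZH2#3, and 401, 337 and 517 CPM in shluc. The 3 groups overlapped, with means of 548 ± 53.5, 495 ± 91.9 and 418 ± 91.6 CPM (SD, n = 3 each). These CPM are scaled by TMM, a factor per library that assumes most genes unchanged. As a share of raw counts, the sum was 0.0478 to 0.0641% in shEZH2#1, 0.0361 to 0.0491% in shEZH2#3 and 0.0446 to 0.0582% in shluc, so the place of shEZH2#3 below or above shluc depends on the scaling.

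**Figure D1:**
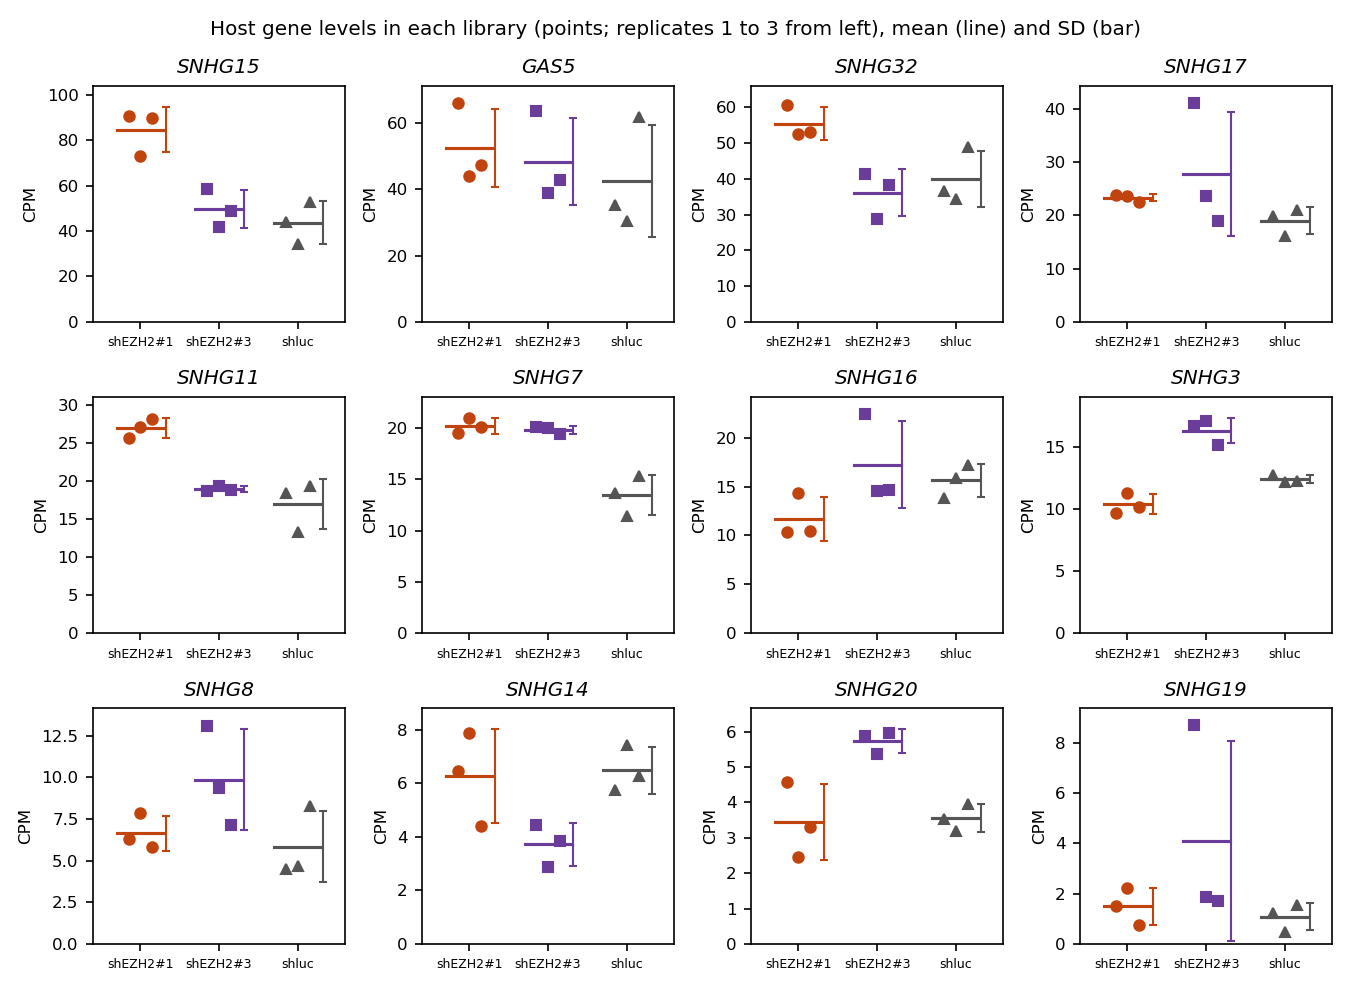
Level of 12 host genes in each library, in TMM-scaled CPM from 0 on a separate axis per gene, with shEZH2#1, shEZH2#3 and shluc from left to right; points are libraries (replicates 1 to 3 from left), lines are means and bars are SD. SNHG15 and SNHG11 stand apart in shEZH2#1, SNHG7 is higher in both hairpin groups, and SNHG19 is high in 1 library of shEZH2#3.

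With shEZH2#1, 3 of the 22 tested host genes rose against shluc and 0 fell at a Benjamini-Hochberg adjusted p below 0.05 in edgeR's quasi-likelihood test. That is 13.6% of the tested host genes, against 19.0% of all 13252 tested genes called in either direction (11.2% higher and 7.89% lower). The median log2 fold change of the host genes was 0.17, beside -0.07 over all tested genes, and 13 of 22 were above 0. The 3 genes that rose were SNHG15, SNHG11 and SNHG7. The count was 6 without shluc replicate 3. In bulk RNA, a change in RNA per cell and a change in the mix of cells cannot be told apart.

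SNHG15, host of the H/ACA snoRNA SNORA9 (chr7:44983023-44986961, minus strand, GRCh38), had 90.8, 73.2 and 89.6 CPM in shEZH2#1 against 44, 34.1 and 52.9 CPM in shluc. All 3 shEZH2#1 libraries lay above the highest shluc library. The log2 fold change was 0.95 ± 0.18 (SE; 1.94-fold, adjusted p = 0.00114), and the call held under all 20 alternatives, with log2 fold changes between 0.79 and 1.12. With shEZH2#3 SNHG15 had 58.6, 41.7 and 48.6 CPM, overlapping shluc, and a log2 fold change of 0.19 ± 0.17 (adjusted p = 0.389).

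SNHG11, host of SNORA60 and SNORA71E (chr20:38446578-38450921, plus strand), had 25.7, 27.2 and 28.2 CPM in shEZH2#1 and 18.4, 13.3 and 19.4 CPM in shluc, without overlap. It rose by a log2 fold change of 0.67 ± 0.16 (1.59-fold, adjusted p = 0.00772), again under all 20 alternatives. In shEZH2#3 it had 18.7, 19.4 and 18.8 CPM, within the shluc range or at its top, with a log2 fold change of 0.16 ± 0.16 (adjusted p = 0.44).

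SNHG7, host of SNORA17A and SNORA17B (chr9:136721366-136728184, minus strand), was the 1 host gene called with both hairpins, 4.55% of the 22, against 11.3% of all tested genes called in the same direction with both (7.99% higher and 3.26% lower). It had 19.5, 21 and 20.1 CPM in shEZH2#1, 20.1, 20 and 19.4 CPM in shEZH2#3, and 13.7, 11.4 and 15.3 CPM in shluc. All 6 hairpin libraries lay above all 3 shluc libraries. The shEZH2#1 log2 fold change was 0.59 ± 0.16 (adjusted p = 0.0129), and that of shEZH2#3 was 0.56 ± 0.16 (adjusted p = 0.00775). Both comparisons use the same shluc libraries. The longest SNHG7 transcript has a GC content of 65.9%, and after correction for GC content and length its log2 fold changes were 0.07 (adjusted p = 0.744) and -0.13 (adjusted p = 0.445). SNHG7 overlaps DIPK1B on the opposite strand, which had log2 fold changes of 0.87 ± 0.47 (adjusted p = 0.202) and 0.54 ± 0.47 (adjusted p = 0.36) with shEZH2#1 and shEZH2#3. Without shluc replicate 3 these DIPK1B values were 1.76 (adjusted p = 0.00988) and 1.42 (adjusted p = 0.0195), and after the correction 0.48 (adjusted p = 0.57) and -0.07 (adjusted p = 0.933). The SNHG7 call with shEZH2#1 was also lost without shEZH2#1 replicate 2 (adjusted p = 0.0632) or shEZH2#1 replicate 3 (adjusted p = 0.0505).

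With shEZH2#3, 6 of the 22 rose against shluc and 1 fell, 31.8% of the host genes. Of all tested genes, 44.2% were called in this comparison (24.4% higher and 19.8% lower). The median log2 fold change of the host genes was 0.28, beside -0.01 over all tested genes, and 15 of 22 were above 0. Besides SNHG7, the genes that rose were SNHG19, SNHG8, SNHG20, SNHG17 and SNHG3, and SNHG14 fell. The count higher was 2 without shluc replicate 1, 1 without shluc replicate 2 and 2 without shEZH2#3 replicate 1. The count lower was 2 without shluc replicate 1 or shEZH2#3 replicate 1, and 0 without shluc replicate 2 or shEZH2#3 replicate 2.

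SNHG19, host of SNORD60 (chr16:2154797-2155358, minus strand), had 8.69, 1.87 and 1.71 CPM in shEZH2#3 and 1.24, 0.478 and 1.53 CPM in shluc. The groups did not overlap, but replicate 1 of shEZH2#3 stood far above the other two. The log2 fold change of 1.93 ± 0.55 (3.81-fold, adjusted p = 0.0082) became 0.74 (adjusted p = 0.219) without that library, 1.56 (adjusted p = 0.0677) without shluc replicate 2, and 0.67 (adjusted p = 0.228) after correction for GC content and length. TRAF7, an E3 ubiquitin ligase gene whose start lies 340 bases away on the opposite strand, also rose with shEZH2#3, by 0.87 ± 0.15 (adjusted p = 0.000239; 0.31 after the correction, adjusted p = 0.00826), and had a log2 fold change of 0.10 ± 0.15 with shEZH2#1 (adjusted p = 0.692).

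SNHG8, host of SNORA24 (chr4:118278709-118279823, plus strand), had 13.1, 9.35 and 7.12 CPM in shEZH2#3 and 4.51, 4.70 and 8.28 CPM in shluc. The groups overlapped through shEZH2#3 replicate 3 and shluc replicate 3. The log2 fold change was 0.76 ± 0.25 (1.69-fold, adjusted p = 0.0198). The call was lost without shEZH2#3 replicate 1 (0.50, adjusted p = 0.114), shluc replicate 1 (0.60, adjusted p = 0.0968) or shluc replicate 2 (0.62, adjusted p = 0.111), and under upper quartile scaling (0.60, adjusted p = 0.0781).

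SNHG20, whose span holds the small Cajal body RNA SCARNA16 (chr17:77086716-77099902, plus strand), had 5.89, 5.36 and 5.96 CPM in shEZH2#3 and 3.54, 3.19 and 3.97 CPM in shluc, without overlap. The log2 fold change was 0.69 ± 0.24 (1.61-fold, adjusted p = 0.0256). It was 0.62 after GC and length correction (adjusted p = 0.0609), and adjusted p was 0.0599, 0.0841 and 0.0659 without shluc replicate 1, shluc replicate 2 or shEZH2#3 replicate 3. Under upper quartile scaling it was 0.52 (adjusted p = 0.0933). SNHG20 overlaps SEC14L1 on the same strand, and SEC14L1 had a log2 fold change of 0.01 ± 0.15 with shEZH2#3 (adjusted p = 0.975). With shEZH2#1 SEC14L1 fell, at -0.62 ± 0.15 (adjusted p = 0.00759), a call lost without shEZH2#1 replicate 2 (-0.56, adjusted p = 0.0585). SNHG20 had -0.04 ± 0.25 with shEZH2#1 (adjusted p = 0.927). For shEZH2#1 against shEZH2#3, SEC14L1 had -0.63 ± 0.15 (adjusted p = 0.00499).

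SNHG17, host of the SNORA71 family (chr20:38420588-38435353, minus strand), had 41.0, 23.6 and 18.9 CPM in shEZH2#3 and 19.9, 16.2 and 21 CPM in shluc, with overlap. The log2 fold change of 0.55 ± 0.21 (adjusted p = 0.0435) became 0.16 (adjusted p = 0.501) without shEZH2#3 replicate 1 and 0.44 (adjusted p = 0.176) without shluc replicate 2. Without shluc replicate 1 or any 1 shEZH2#1 library, adjusted p lay between 0.0564 and 0.0775, and after GC and length correction the value was 0.51 (adjusted p = 0.125). Only 8 of 20 alternatives kept this call.

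SNHG3, host of SNORA73A and SNORA73B (chr1:28505980-28510892, plus strand), had 16.7, 17.1 and 15.2 CPM in shEZH2#3 and 12.8, 12.2 and 12.3 CPM in shluc. These groups lay apart with little spread, at a log2 fold change of 0.40 ± 0.15 (1.32-fold, adjusted p = 0.0434). The call was lost in 15 of 20 alternatives, where adjusted p went up to 0.225 under upper quartile scaling and lay between 0.0581 and 0.138 with any 1 library left out. After GC and length correction it was larger, 0.70 (adjusted p = 0.00137). SNHG3 starts next to RCC1, the nucleotide exchange factor of Ran, on the same strand; RCC1 fell with shEZH2#3, by a log2 fold change of -0.37 ± 0.14 (adjusted p = 0.0413). That RCC1 call held in 9 of 20 alternatives and was lost without shluc replicate 1, shEZH2#1 replicate 2 or 3, or any 1 shEZH2#3 library (adjusted p up to 0.166). Without a stated strand and overlap setting, counts of such overlapping genes are uncertain.

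SNHG14 (chr15:24978583-25419462, plus strand) was the 1 host gene that fell. Its long transcript runs antisense to UBE3A and is known to silence the paternal UBE3A copy in neurons. It had 4.46, 2.87 and 3.86 CPM in shEZH2#3 and 5.75, 7.45 and 6.27 CPM in shluc, without overlap, and a log2 fold change of -0.80 ± 0.24 (57.5% of shluc, adjusted p = 0.0122). After GC and length correction the value was -0.33 (adjusted p = 0.334), and the call was lost without shluc replicate 2 (-0.69, adjusted p = 0.0572) or shEZH2#3 replicate 2 (-0.65, adjusted p = 0.0625). UBE3A, an E3 ubiquitin ligase gene on the other strand, fell with both hairpins, by log2 fold changes of -0.82 ± 0.20 (adjusted p = 0.00735) and -1.01 ± 0.20 (adjusted p = 0.000599). After the correction these UBE3A values were -0.47 (adjusted p = 0.0444) and -0.36 (adjusted p = 0.101), and the shEZH2#1 value was -0.69 without shEZH2#1 replicate 3 (adjusted p = 0.0541). SNHG14 itself had a log2 fold change of -0.05 ± 0.23 with shEZH2#1 (adjusted p = 0.91).

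**Figure D2:**
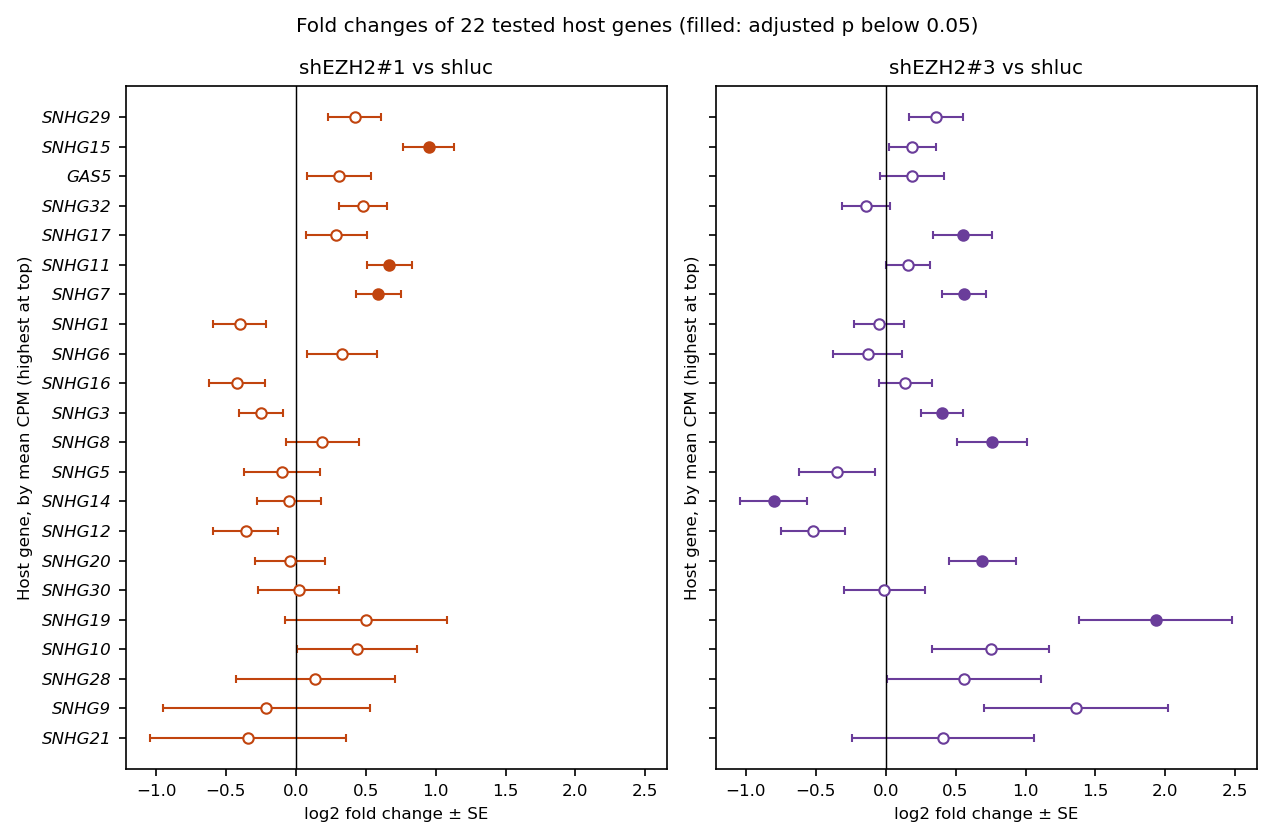
Log2 fold change (x axis, bars are SE) of the 22 tested host genes, ordered by mean CPM from the top, for shEZH2#1 and shEZH2#3 against shluc; filled points have an adjusted p below 0.05 in edgeR's quasi-likelihood test. SNHG7 is filled in both panels, and SNHG19 has the highest value, 1.93 with shEZH2#3.

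The most abundant host genes that were not called had intermediate values. SNHG29, host of SNORD49A, SNORD49B and SNORD65, had 229, 177 and 186 CPM in shEZH2#1, 217, 151 and 204 CPM in shEZH2#3, and 145, 109 and 190 CPM in shluc. Both hairpin groups overlapped shluc through shluc replicate 3, with log2 fold changes of 0.42 ± 0.19 (adjusted p = 0.137) and 0.36 ± 0.19 (adjusted p = 0.125). Without shluc replicate 3 they were 0.63 (adjusted p = 0.0193) and 0.58 (adjusted p = 0.0178), and after GC and length correction 0.53 (adjusted p = 0.0353) and 0.65 (adjusted p = 0.0101).

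GAS5 had 65.9, 44.1 and 47.2 CPM in shEZH2#1, 63.5, 38.9 and 42.7 CPM in shEZH2#3, and 35.4, 30.3 and 61.7 CPM in shluc. In every group 1 library stood above the others, and the groups overlapped. The log2 fold change was 0.31 ± 0.23 in the shEZH2#1 comparison (adjusted p = 0.383) and 0.19 ± 0.23 in the shEZH2#3 comparison (adjusted p = 0.523). Without shluc replicate 3 they were 0.67 (adjusted p = 0.0244) and 0.55 (adjusted p = 0.0369), and after GC and length correction 0.44 (adjusted p = 0.201) and 0.68 (adjusted p = 0.0406).

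SNHG32, host of SNORD48 and SNORD52, had 60.7, 52.7 and 53.0 CPM in shEZH2#1, 41.4, 28.7 and 38.3 CPM in shEZH2#3, and 36.5, 34.3 and 48.9 CPM in shluc. The shEZH2#1 libraries lay above all shluc libraries, yet the log2 fold change of 0.48 ± 0.17 missed the threshold (adjusted p = 0.0562); it passed in 9 of 20 alternatives, DESeq2 among them (adjusted p = 0.034). With shEZH2#3 it was -0.14 ± 0.17 (adjusted p = 0.508), and -0.36 after GC and length correction (adjusted p = 0.0327).

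SNHG1 and SNHG16, hosts of C/D snoRNAs, had log2 fold changes of -0.40 ± 0.19 (adjusted p = 0.145) and -0.42 ± 0.20 (adjusted p = 0.141) with shEZH2#1, and -0.18 (adjusted p = 0.543) and -0.17 (adjusted p = 0.627) after GC and length correction. SNHG12, which hosts both snoRNA classes, had -0.52 ± 0.23 with shEZH2#3 (adjusted p = 0.0737), and -0.93 after GC and length correction (adjusted p = 0.00921). SLC3A2, the heavy chain of amino acid transporters that starts 188 bases from SNHG1 on the opposite strand, rose with shEZH2#3 by 0.45 ± 0.15 (adjusted p = 0.0233), while SNHG1 had -0.05 ± 0.18 (adjusted p = 0.85). The SLC3A2 value was 0.01 after the correction (adjusted p = 0.958), and leaving out shluc replicate 2, shEZH2#3 replicate 2 or shEZH2#3 replicate 3 also ended its call (adjusted p up to 0.093). With shEZH2#1 SLC3A2 had -0.24 ± 0.15 (adjusted p = 0.286), and -0.46 after the correction (adjusted p = 0.000998). RPS2, a ribosomal protein gene that starts 99 bases from SNHG9, rose with shEZH2#3 by 0.50 ± 0.17 (adjusted p = 0.0223), and SNHG9 had 1.36 ± 0.66 (adjusted p = 0.0953) on counts of 48, 9 and 7 in shEZH2#3 and 14, 8 and 10 in shluc. After the correction the shEZH2#3 values were -0.28 for RPS2 (adjusted p = 0.0526) and -0.07 for SNHG9 (adjusted p = 0.947), below 0 in both. Leaving out shluc replicate 2, shEZH2#3 replicate 1 or shEZH2#3 replicate 3 also ended the RPS2 call (adjusted p up to 0.0816). Of the SNHG9 counts in shEZH2#3, replicate 1 held the most.

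SNHG6, host of SNORD87, had 19.9, 9.60 and 10.3 CPM in shEZH2#3 and 14.3, 11.1 and 18.3 CPM in shluc, with a log2 fold change of -0.13 ± 0.25 (adjusted p = 0.682). Without shEZH2#3 replicate 1 it was -0.55 (adjusted p = 0.0479). SNHG5, host of SNORD50B, had log2 fold changes of -0.10 ± 0.27 (shEZH2#1, adjusted p = 0.837) and -0.35 ± 0.27 (shEZH2#3, adjusted p = 0.29). SNHG10, SNHG21, SNHG28 and SNHG30 had mean levels under 3 CPM in every group and were called in neither comparison.

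**Figure D3:**
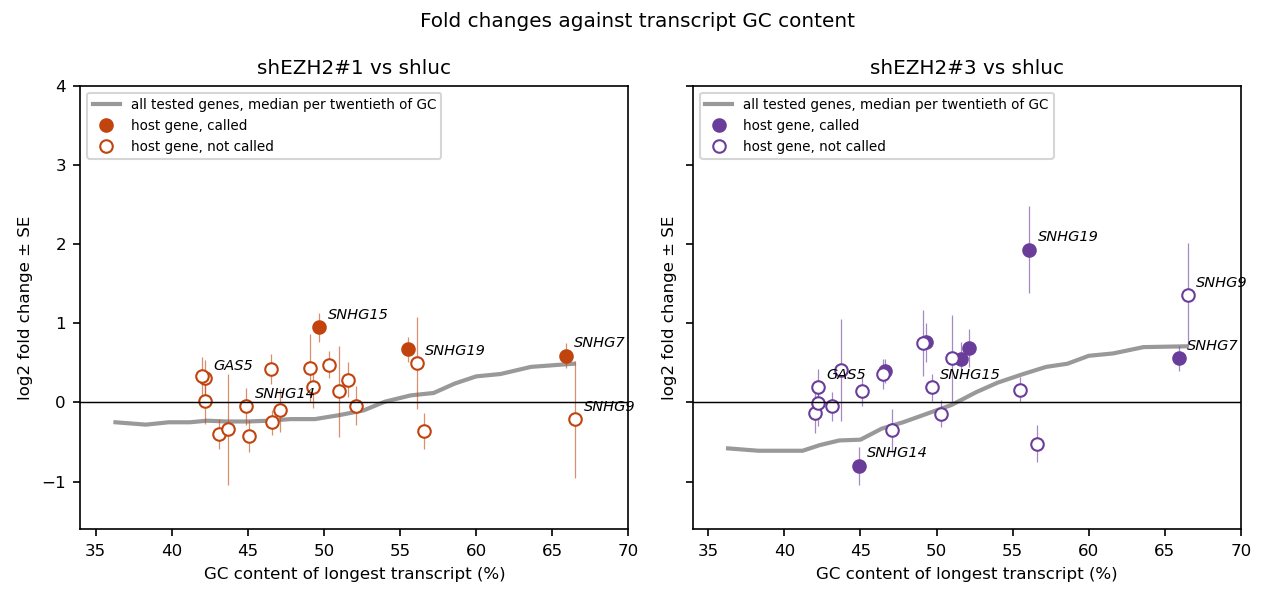
Log2 fold change with SE (y axis) of the 22 tested host genes against transcript GC content in percent (x axis), for shEZH2#1 and shEZH2#3 against shluc. GC content is that of the longest transcript, or of the longest protein-coding one where a gene has any. Filled points were called, and the grey line joins the medians of all tested genes in twentieths of GC content. The grey line climbs with GC content in both panels, and SNHG7, at 65.9% GC, lies close to it in each.

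Across the 22 host genes, Pearson's r between log2 fold change and GC content was 0.22 for shEZH2#1 against shluc and 0.49 for shEZH2#3 against shluc, as a description of genes that share the same libraries. Over all tested genes, Spearman's rho was 0.47 and 0.69. After GC and length correction, SNHG29, SNHG15 and SNHG11 were called higher with shEZH2#1. With shEZH2#3, SNHG29, GAS5, SNHG3 and SNHG8 were then called higher and SNHG32 and SNHG12 lower. SNHG29 was thus called with both hairpins in the corrected fit, and SNHG7 with neither. The share of all tested genes called in the corrected fit is not given here, so these calls have no share to be read against.

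**Figure D4:**
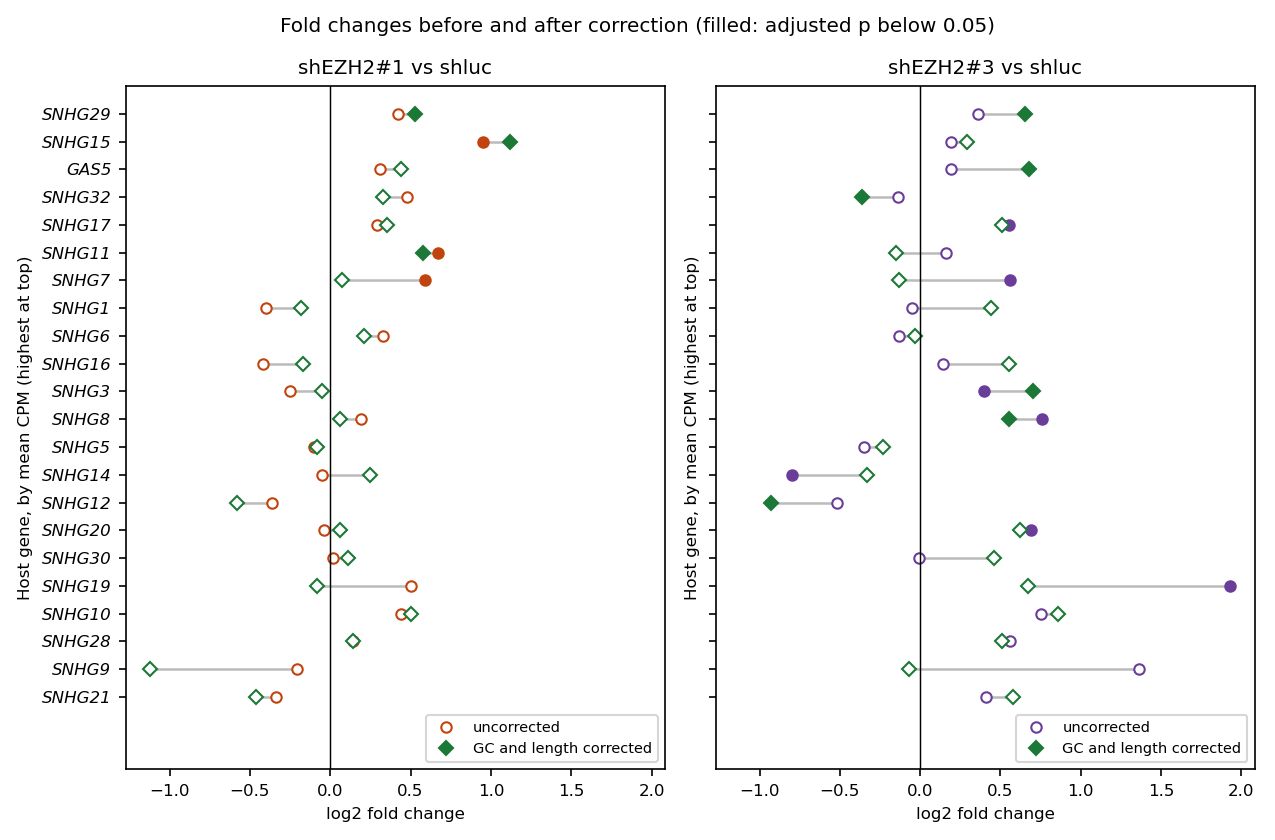
Log2 fold change (x axis) of the 22 tested host genes before (circles) and after (diamonds) correction for GC content and length, for shEZH2#1 and shEZH2#3 against shluc; filled symbols have an adjusted p below 0.05, and grey lines join both values of a gene. SNHG7 moves to 0.07 and -0.13, whereas SNHG29 moves to 0.53 and 0.65.

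The hairpin groups also differed from each other. Between shEZH2#1 and shEZH2#3, 4 of 22 host genes were higher in shEZH2#1 and 3 were lower, 31.8% of them, beside 25.0% of all tested genes called in this comparison (9.46% higher and 15.5% lower). The median log2 fold change of the host genes was -0.12, beside 0.01 over all tested genes. SNHG15 was higher by a log2 fold change of 0.77 ± 0.17 (adjusted p = 0.00328), SNHG14 by 0.75 ± 0.25 (adjusted p = 0.0303), SNHG32 by 0.62 ± 0.17 (adjusted p = 0.0126) and SNHG11 by 0.51 ± 0.16 (adjusted p = 0.0273). SNHG20 had a log2 fold change of -0.73 ± 0.25 (adjusted p = 0.0347), SNHG3 of -0.65 ± 0.16 (adjusted p = 0.0055) and SNHG16 of -0.56 ± 0.20 (adjusted p = 0.0425). SNHG16 had 10.3, 14.3 and 10.4 CPM in shEZH2#1 and 22.4, 14.6 and 14.7 CPM in shEZH2#3. SNHG15 and SNHG3 kept their calls under all 20 alternatives, whereas SNHG16 kept its call in 9 and had -0.33 (adjusted p = 0.242) without shEZH2#3 replicate 1. SNHG16 also lost its call without shluc replicate 1 or without shEZH2#1 replicate 1 or 3. SNHG32 lost its call without shEZH2#1 replicate 1 or shEZH2#3 replicate 2 (adjusted p up to 0.0811). SNHG11 lost it without shEZH2#1 replicate 2 or 3 or any shEZH2#3 library (up to 0.0804), SNHG20 without the same libraries (up to 0.176), and SNHG14 without shEZH2#1 replicate 1 or 2 or shEZH2#3 replicate 2 or 3 (up to 0.174). GC and length correction ended the calls of SNHG20 (-0.55, adjusted p = 0.0928) and SNHG14 (0.58, adjusted p = 0.0833), and SNHG1 was then lower in shEZH2#1 (-0.62, adjusted p = 0.0184). The count higher fell to 1 without shEZH2#3 replicate 2, and to 2 without shEZH2#1 replicate 1, shEZH2#1 replicate 2 or shEZH2#3 replicate 3. The count lower was 1 without shEZH2#1 replicate 3 or shEZH2#3 replicate 1, and 5 without shEZH2#3 replicate 3.

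Within groups, many host genes moved together from library to library. Replicate 1 of shEZH2#3 had the highest level of its group for 18 of the 22 genes, with a median log2 deviation of 0.33 from the group mean. Replicate 3 of shluc was highest for 17 genes (median 0.21), and replicate 2 of shluc was lowest for 16 (median -0.23). In the shEZH2#1 group the median deviations lay between -0.07 and 0.10. The order of libraries was not counted over all tested genes, so these counts have no share to be read against. Whether the pattern is particular to host genes was not tested.

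**Figure D5:**
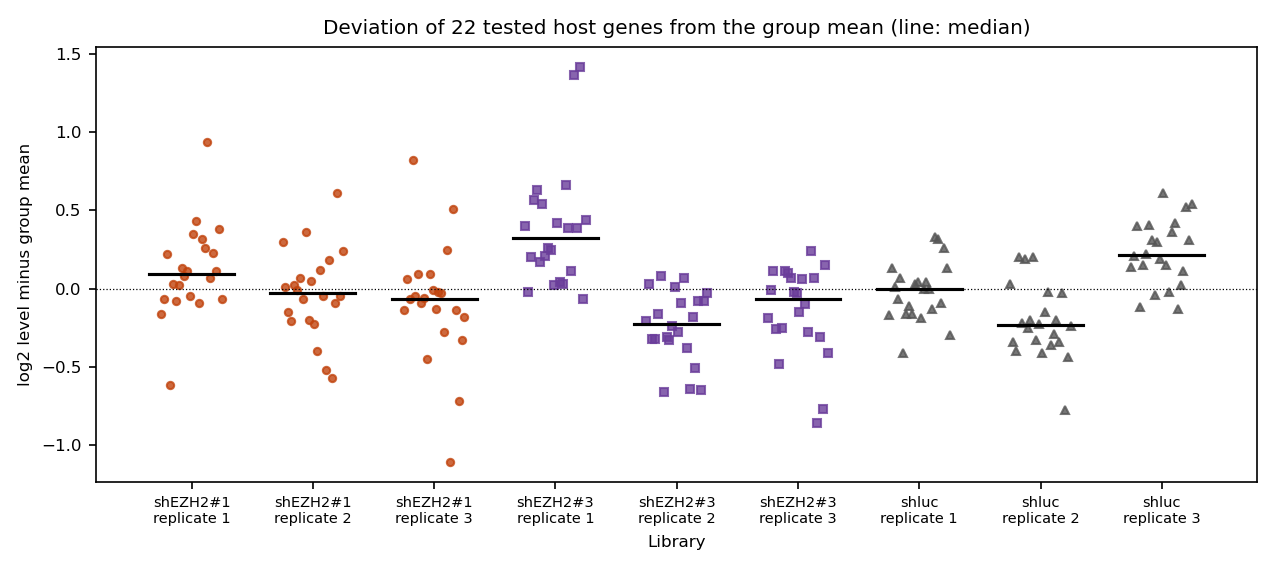
Deviation of each of the 22 tested host genes from the mean of its group (y axis, log2) in each library (x axis), with shEZH2#1, shEZH2#3 and shluc from left to right; each point is 1 gene and lines are medians. The points of shEZH2#3 replicate 1 and shluc replicate 3 lie mostly above 0, and those of shluc replicate 2 mostly below.

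Over the 14 host genes with a mean of at least 5 CPM, the within-group deviations of a gene pair had a median Pearson's r of 0.49 over 9 libraries (91 pairs, range -0.44 to 0.94). These points share library scaling and base composition, so the values are a description. SNHG29 had 0.94 with SNHG32, 0.93 with SNHG15 and 0.90 with GAS5, and SNHG11 had 0.94 with SNHG7. The lowest pair was SNHG11 with SNHG14, at -0.44. SNHG3 had -0.39 with SNHG29 and -0.41 with SNHG32, but 0.47 with SNHG16 and 0.40 with SNHG8.

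Mature snoRNAs carry no poly(A) tail, and these poly(A)-selected libraries held almost none of their reads. The match took snoRNA and small Cajal body RNA genes of GENCODE 29 that lie wholly within a host's span on its strand. It placed at least 1 inside 26 of the 28 host genes. None was matched inside GAS5 and SNHG27, which does not show that these hosts carry none. Of the 137 genes matched, 93 had a row in the table, and those rows held 1 count in total over the 9 libraries. Only 11 of 907 snoRNA and small Cajal body RNA rows in the whole table held any count. SNORD3A (U3), an independently transcribed snoRNA, was the 1 that was tested; it had 47.5, 30 and 38 counts in shEZH2#1, 255, 35.4 and 24 counts in shEZH2#3, and 14, 18.1 and 21.4 counts in shluc. Replicate 1 of shEZH2#3, the library with the high SNHG19 and SNHG9 values, held the 255 counts.

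Genes of the snoRNA pathway moved in both directions. Values in these lists are log2 fold changes, given for shEZH2#1 and then shEZH2#3 against shluc. Over all tested genes, 11.2% were higher and 7.89% lower with shEZH2#1 (19.0% in all), and 24.4% higher and 19.8% lower with shEZH2#3 (44.2% in all), with medians of -0.07 and -0.01.

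Of 4 C/D core proteins, shEZH2#1 libraries had 0 higher and 1 lower, and shEZH2#3 libraries 1 higher and 1 lower. The list medians were -0.07 and 0.03. Fibrillarin (FBL), the ribose methyltransferase, had 0.09 ± 0.16 in the shEZH2#1 comparison (adjusted p = 0.726) and rose by 0.47 ± 0.16 with shEZH2#3 (adjusted p = 0.0208). After GC and length correction both FBL values were below 0, at -0.27 (adjusted p = 0.0197) and -0.08 (adjusted p = 0.448). The shEZH2#3 call of FBL ended, too, with shluc replicate 2 left out (adjusted p = 0.0791) or shEZH2#3 replicate 1 left out (adjusted p = 0.0591). The C/D core protein SNU13 had 0.07 ± 0.16 (adjusted p = 0.795) and 0.21 ± 0.16 (adjusted p = 0.294).

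Of 4 H/ACA core proteins (medians -0.12 and -0.01), shEZH2#1 libraries had 0 called, and shEZH2#3 libraries had 1 higher and 1 lower. Dyskerin (DKC1), the pseudouridine synthase, fell by a log2 fold change of -0.68 ± 0.14 with shEZH2#3 (adjusted p = 0.000802), a call that held in 20 of 20 alternatives. NHP2 had 0.05 ± 0.17 with shEZH2#1 (adjusted p = 0.883) and rose by 0.45 ± 0.17 with shEZH2#3 (adjusted p = 0.0383), and after the correction it had -0.34 (adjusted p = 0.0092) and -0.16 (adjusted p = 0.169). The NHP2 call with shEZH2#3 held in 9 of 20 alternatives and was lost without shluc replicate 1 or 2, any 1 shEZH2#1 library, or shEZH2#3 replicate 1 or 3 (adjusted p up to 0.167).

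Of 10 assembly factors, 1 rose and 1 fell in shEZH2#1 libraries (20% called), and 1 rose and 4 fell in shEZH2#3 libraries (50% called). Taken over both directions, these shares were near those of all tested genes. By direction, the 1 higher and 4 lower with shEZH2#3 stand beside 24.4% higher and 19.8% lower of all tested genes. The list medians were -0.37 and -0.46, and -0.22 and -0.20 after GC and length correction. In the corrected fit 2 were higher and 2 lower with shEZH2#1, and 0 higher and 2 lower with shEZH2#3. The AAA+ ATPase RUVBL2 rose with both hairpins, by 0.63 ± 0.16 (adjusted p = 0.00781) and 0.51 ± 0.15 (adjusted p = 0.0126). After the correction RUVBL2 had 0.27 (adjusted p = 0.0165) and -0.06 (adjusted p = 0.596), and leaving out a hairpin library ended its calls, with shEZH2#1 without replicate 3 of that group (adjusted p = 0.0526) and with shEZH2#3 without replicate 2 of that group (adjusted p = 0.0561). The nucleolar protein TCOF1 fell with both, at log2 fold changes of -0.46 ± 0.15 (adjusted p = 0.0342) and -0.51 ± 0.15 (adjusted p = 0.00938). The TCOF1 call held in 12 of 20 alternatives with shEZH2#1, where it was lost without shluc replicate 1 or 2 or any 1 shEZH2#1 library (adjusted p up to 0.129), and in 20 of 20 with shEZH2#3.

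Of 20 nonsense-mediated decay and exon junction genes, 0 rose and 2 fell in shEZH2#1 libraries (10% called), and 1 rose and 7 fell in shEZH2#3 libraries (40% called). The list medians were -0.25 and -0.30, and -0.04 and -0.13 after GC and length correction. The kinase complex subunit SMG8 fell with both hairpins in 20 of 20 alternatives, at -0.77 ± 0.18 (adjusted p = 0.00547) and -0.91 ± 0.18 (adjusted p = 0.000581).

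Among other hosts, 3 non-coding ones were tested (medians 0.18 and 0.43), and a different gene rose with each hairpin. EPB41L4A-AS1, a gene outside the naming rule that was chosen after its values were seen, rose by 0.72 ± 0.21 with shEZH2#1 (adjusted p = 0.0232). Its shEZH2#3 value was 0.05 ± 0.22 (adjusted p = 0.865). Its call was lost without shluc replicate 1 or 2 or shEZH2#1 replicate 1 or 3 (adjusted p up to 0.117). DANCR had -0.07 ± 0.15 (adjusted p = 0.79) with shEZH2#1 and rose by 0.50 ± 0.15 with shEZH2#3 (adjusted p = 0.0103), or 0.12 after the correction (adjusted p = 0.567). ZFAS1 had 0.18 ± 0.27 (adjusted p = 0.677) and 0.43 ± 0.27 (adjusted p = 0.195), and 0.71 with shEZH2#3 without shEZH2#3 replicate 3 (adjusted p = 0.0259).

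Of 37 protein-coding hosts, 1 rose and 3 fell in shEZH2#1 libraries (10.8% called), and 10 rose and 7 fell in shEZH2#3 libraries (45.9% called), with medians of -0.11 and 0.19. The shEZH2#3 share was near that of all tested genes. The deadenylase scaffold CNOT1 fell with both, at -0.65 ± 0.20 (adjusted p = 0.0249) and -0.94 ± 0.20 (adjusted p = 0.00102). After the correction CNOT1 had -0.30 (adjusted p = 0.118) and -0.44 (adjusted p = 0.0221). Leaving out shluc replicate 1 or 2, or shEZH2#1 replicate 2 or 3, also ended its shEZH2#1 call (adjusted p up to 0.145).

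Of 18 other TOP genes of translation, 1 rose and 5 fell in shEZH2#1 libraries (33.3% called), and 4 rose and 3 fell in shEZH2#3 libraries (38.9% called), with medians of -0.10 and -0.06. After the correction, 9 were higher and 1 lower with shEZH2#3, with a median of 0.29, beside 0 over all tested genes. The share of all tested genes called after the correction is not given here, so these counts have no share to be read against. The elongation factor EEF1A1 fell with both, at -0.62 ± 0.20 (adjusted p = 0.0343) and -0.52 ± 0.20 (adjusted p = 0.0388), and had -0.38 (adjusted p = 0.195) and -0.18 (adjusted p = 0.535) after the correction. Both EEF1A1 calls ended without shluc replicate 2 or 3 or shEZH2#1 replicate 2. That of shEZH2#1 also ended without its replicate 3, and that of shEZH2#3 without its replicate 1 or 2 (adjusted p up to 0.195).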

How the data were processed

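The authors deposited estimated counts, 1 value per Ensembl gene and library, without normalization. TruSeq libraries were made from poly(A)-selected RNA with dUTP strand marking, per the labels' protocols. The submitters' processing notes list fastp, StringTie and HISAT2, and GRCh38 as the build, without versions. The counting annotation, strand setting and handling of multiple mapping were not given in the sources used here, and identical values stood in the series table and the 9 single files. Symbols were matched by identifier, and positions, types and lengths came from GENCODE 29.

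Estimated counts were rounded and tested with edgeR 4.0.16 (R 4.3.3): TMM, filterByExpr, 1 quasi-likelihood fit of all 9 libraries with a mean per group, Benjamini-Hochberg over 13252 genes, adjusted p below 0.05. The biological coefficient of variation was 0.177. SE is the unshrunken fold change divided by the square root of F. CPM are TMM-scaled. The GC and length correction was a smooth per library (span 0.3) as an offset. Its GC content and length were those of a gene's longest protein-coding transcript, or of its longest transcript where it has no such one. Genes without both values had no correction. The 2 most abundant genes without a symbol took 15.81 to 22.58% of a library's counts in shEZH2#1, 5.97 to 11.59% in shEZH2#3 and 6.96 to 9.28% in shluc. They stayed in, and are part of the totals behind the shares of raw counts given above. Replicate libraries differed far beyond sampling noise (chi-square per degree of freedom 15.7 to 84).

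The tests were tried on simulated counts. Members, gene lists and alternatives were chosen with earlier results of these data known. Other genes are named where both hairpins called them (at most 4 a list by mean fold change), otherwise the 2 most abundant of a list, together with genes starting within 1000 bases on the opposite strand or overlapping a member. A protein-coding host that this rule names is not reported here.

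Each host gene result was also computed with DESeq2 1.42.0, limma-voom (limma 3.58.1), upper quartile or RLE scaling, no filter, a mean of at least 5 CPM, a fit of the compared groups alone, a replicate block, the GC and length correction, the 2 abundant unnamed genes removed, each library left out, and shluc replicate 2 and shEZH2#3 replicate 1 left out together. The same was done for the lists and other genes named, an alternative chosen after seeing the data.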

Additional observations from a re-analysis of the deposited data

Results flagged for a closer look

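In 7 host genes the effect of shEZH2#1 differed from that of shEZH2#3 by the direct test between the hairpin groups (edgeR, adjusted p below 0.05), 31.8% of the 22 tested, beside 25.0% of all tested genes. The difference (log2, shEZH2#1 minus shEZH2#3) was 0.77 for SNHG15, 0.75 for SNHG14, 0.62 for SNHG32 and 0.51 for SNHG11. It was -0.73 for SNHG20, -0.65 for SNHG3 and -0.56 for SNHG16. The calls of SNHG15 and SNHG3 held under all 20 alternatives, and the other 5 were each lost without at least 1 single library. SNHG3 had 9.73, 11.3 and 10.2 CPM in shEZH2#1 and 16.7, 17.1 and 15.2 CPM in shEZH2#3, with shluc between them at 12.8, 12.2 and 12.3 CPM. EZH2 had means of 10.1 ± 2.41 and 9.93 ± 0.989 CPM in these hairpin groups (SD, n = 3 each), which differed by 0.02 on the log2 scale (adjusted p = 0.943).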

How the results depend on the processing

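Among the 17 calls of single host genes, 258 of 337 alternative values kept direction and call, 78 kept the direction but lost the call, and 1 turned: SNHG7 with shEZH2#3 was -0.13 after GC and length correction. Of 956 alternative values of comparisons not called, 33 gained a call and 64 changed sign without one. The count of host genes higher with shEZH2#3 (6) was 2 under upper quartile scaling, 2 with the stricter filter, and 1 without shluc replicate 2 and shEZH2#3 replicate 1. The count lower (1) became 2 under upper quartile scaling, 2 after the correction, and 3 without those 2 libraries. For shEZH2#1 against shEZH2#3, the count lower (3) was 1 under upper quartile scaling and 1 with the stricter filter, and the count higher (4) was 5 without those libraries. Upper quartile scaling moved the median of all genes to -0.18 with shEZH2#3 and to 0.18 between the hairpins. The stricter filter tests fewer host genes; other causes were not tested.

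With 1 library left out, 2 to 6 host genes were higher with shEZH2#1 and 0 lower, 1 to 7 higher and 0 to 2 lower with shEZH2#3, and 1 to 4 higher and 1 to 5 lower between the hairpins. DESeq2 gave 4 higher and 0 lower, 6 and 1, and 4 and 3 in the 3 comparisons. Shares of all tested genes called are given only for the reported fit. Counts of host genes called under any alternative, here and above, therefore have no share to be read against.

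Same-numbered libraries had correlations of deviations between -0.12 and 0.08, and differently numbered ones between -0.16 and 0.16. No shared effect of the number was visible in these values, but whether the numbers mark shared cultures is not known. With the replicate number as a block, 3 host genes were higher with shEZH2#1, 5 higher and 1 lower with shEZH2#3, and 4 higher and 2 lower between the hairpins.

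For the other genes named, alternatives chosen after seeing the data, GC and length correction turned the sign of values called before or after it, FBL to -0.27 and NHP2 to -0.34 with shEZH2#1, and FBL to -0.08, NHP2 to -0.16, RPS2 to -0.28 and RUVBL2 to -0.06 with shEZH2#3.

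Groups of 3 and levels under 3 CPM leave wide errors for SNHG9, SNHG10, SNHG19, SNHG21 and SNHG28. Counting rules for overlapping genes are unknown, and snoRNAs were not measurable here.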
